A study of Arabidopsis thaliana with 6 samples.

Results

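The alpha-expansins EXPA1, EXPA2, EXPA3, EXPA4, EXPA5, EXPA6, EXPA8, EXPA9, EXPA10 and EXPA15 were followed by locus identifier in RNA-seq of Arabidopsis thaliana seedlings. All 10 genes were present among the 33602 rows of the count files and among the 25005 rows of the authors' deposited table. They are 10 of the 26 alpha-expansin genes of the genome. RNA came from whole seedlings 1 day old, from wild-type Col-0 (3 libraries) or from the mutant vil1-1 (3 libraries). Both genotypes were treated alike: seeds spent 3 days in darkness at 4 °C, after which plants grew on half-strength MS plates at 22 °C in 16 h light and 8 h dark. The labels call the genotype a vil1 mutant and name no other allele, and VIL1 encodes a PHD finger protein that works with Polycomb repressive complex 2. The comparison asked which transcripts differ between the genotypes at this age.

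Alpha-expansins are secreted proteins that loosen the contacts between cellulose and other wall polymers without cutting them, and they do so at acidic wall pH. This lets turgor stretch the wall, so expansins serve the elongation of the radicle and hypocotyl when a seed germinates. In the seed, they also act in the endosperm, the layer around the embryo that must weaken before the radicle can emerge. EXPA2 is known as an endosperm expansin induced by gibberellin during germination, and EXPA8 as a gibberellin-responsive expansin of the embryo epidermis. EXPA10 is known from leaf growth, EXPA1 from guard cells, and EXPA5 from growth driven by brassinosteroids.

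Where 3 values are given per genotype, they stand in the order of the replicate numbers. Library totals ran from 46917 to 66546 counts, so a single count was worth 15.0 to 21.3 counts per 1000000 library counts (CPM) and a count of 0 allowed up to 45.1 to 63.9 CPM. These totals are low for RNA-seq libraries, and 10137 genes of the authors' deposited table have no count in any library. It is not known here whether the count files hold all the reads behind that table, so CPM, floors and calls from the counts describe these files as deposited. VIL1 had 0 counts in all 6 libraries, which leaves the genotype labels unchecked by the counts. The authors' deposited table gives VIL1 a log2 fold change of -0.91, lower in vil1-1. Counts at 4834 near-silent genes, whose mean level in the authors' deposited table lies under 0 on the log2 CPM scale, were most frequent in Col-0 replicates 2 and 3, at 9.77 and 7.59 of every 10000 counts, against 2.77 to 4.46 in the other 4 libraries. Values without these 2 libraries together are given beside the results for the tested genes, their sum, the share of EXPA2, the levels in Col-0 and the likeness to EXPA2.

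Most of these expansins were higher in vil1-1. Summed over the 10 genes, Col-0 libraries reached 1494, 1458 and 1518 CPM and vil1-1 libraries 2451, 2777 and 2512 CPM. The groups did not overlap, and the vil1-1 mean was 1.73 times that of Col-0 (2580 ± 173 against 1490 ± 30.4 CPM, SD, n = 3 each). The difference of 1090 CPM was 1086 CPM with Col-0 replicate 1 as the lone wild-type library. This sum is a description without a test, because the genes were chosen with results known. From the counts, 5 of the 10 genes had enough counts for a test, and EXPA2 and EXPA10 were called higher in vil1-1 and none lower. Of all 942 genes tested by edgeR, 3.72% were called, 2.76% higher and 0.955% lower. Of the 10 genes, 7 were called higher in the authors' deposited table (EXPA1, EXPA2, EXPA3, EXPA8, EXPA9, EXPA10 and EXPA15), EXPA6 was called lower, and EXPA4 and EXPA5 were not called. Of all 25005 genes there, 7.13% were called, 3.56% higher and 3.58% lower. The p-values behind these calls appear to take the spread between replicates as known, not estimated for each gene. Over the 10 genes, the authors' deposited table has a median log2 fold change of 0.70, against -0.05 over all its genes. In bulk RNA of whole seedlings, more cells of a type and more RNA per cell cannot be told apart.

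EXPA2 (AT5G05290, chromosome 5, 1568694 to 1569915, plus strand, TAIR10.1, 3 exons) differed most in the counts. Its 250 bases before the annotated start, chr5:1568444-1568693 (plus strand, RefSeq TAIR10.1), are shown because EXPA2 is the member called in the authors' deposited table and in the counts under each setting tried. Capitals mark a match to the RY element CATGCA, which seed B3-domain factors such as ABI3 bind, read here from the opposite strand.
EXPA2: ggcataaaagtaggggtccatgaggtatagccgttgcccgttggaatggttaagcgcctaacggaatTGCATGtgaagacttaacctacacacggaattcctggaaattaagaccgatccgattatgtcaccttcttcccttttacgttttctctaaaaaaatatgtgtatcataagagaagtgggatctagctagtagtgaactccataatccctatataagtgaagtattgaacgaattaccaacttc
Col-0 libraries held 164, 316 and 232 CPM of EXPA2, from 8, 21 and 15 counts. The vil1-1 libraries held 661, 588 and 663 CPM, from 31, 29 and 42 counts. Every vil1-1 library lay above every Col-0 library, and the lowest vil1-1 value was well clear of the highest Col-0 value. EXPA2 rose 2.66-fold, or by 1.41 on the log2 scale (SE 0.27, edgeR adjusted p = 0.000183). The authors' deposited table gives a log2 fold change of 1.07 for EXPA2 (adjusted p = 1.22e-49), which ranks 26 of its 25005 genes by p. Without Col-0 replicates 2 and 3 together, EXPA2 had a log2 fold change of 1.97 (edgeR adjusted p = 0.0157), with the lone Col-0 library taken to vary like vil1-1. The last 61 bases of EXPA2 overlap AT5G05300, a gene on the opposite strand, and the sources used here do not give the strand setting of the counting. AT5G05300 itself held 1 count over all 6 libraries.

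EXPA10 (AT1G26770, chromosome 1, 9259432 to 9261313, plus strand) was also called in the counts. Col-0 libraries held 450, 286 and 217 CPM of it and vil1-1 libraries 490, 588 and 711 CPM. The groups did not overlap, but Col-0 replicate 1 came close to vil1-1 replicate 1. The rise of EXPA10 was 1.00 on the log2 scale (SE 0.26, edgeR adjusted p = 0.0114), and the authors' deposited table gives 0.94 (adjusted p = 4.49e-24). The EXPA10 call did not hold in DESeq2 (0.97, DESeq2 adjusted p = 0.288), with no filter (0.96, edgeR adjusted p = 0.119) or with a filter of CPM above 1 in 3 libraries (0.93, edgeR adjusted p = 0.0828). Nor did it hold on leaving out Col-0 replicate 2 (0.93, edgeR adjusted p = 0.0739), Col-0 replicate 3 (log2 fold change 0.77, edgeR adjusted p = 0.131), vil1-1 replicate 2 (1.01, edgeR adjusted p = 0.0623) or vil1-1 replicate 3 (0.85, edgeR adjusted p = 0.199). Without Col-0 replicates 2 and 3 together its log2 fold change fell to 0.45 (edgeR adjusted p = 0.866).

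EXPA1 (AT1G69530, chromosome 1, 26141726 to 26143538, plus strand) is the closest relative of EXPA10 among the 10 genes by identity over aligned coding bases. Its levels were 143, 90.2 and 155 CPM in the wild type against 213, 243 and 190 CPM in the mutant, from 6 to 12 counts per library. The groups did not overlap, but the difference of 0.76 on the log2 scale (SE 0.40, edgeR adjusted p = 0.432) did not pass the test. In the authors' deposited table EXPA1 had the largest log2 fold change of the 10 genes, 1.15 (adjusted p = 4.28e-47).

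EXPA9 and EXPA3 were abundant in both genotypes and differed less. EXPA9 (AT5G02260) stood at 409, 466 and 403 CPM in wild-type libraries and at 533, 628 and 553 CPM in mutant libraries. These groups did not overlap either, and the replicates of each lay close together, but the difference of 0.44 on the log2 scale (SE 0.24, edgeR adjusted p = 0.438) did not pass. EXPA3 (AT2G37640) stood at 286, 210 and 418 CPM in wild-type libraries and at 512, 547 and 269 CPM in mutant libraries. Here the groups overlapped, since vil1-1 replicate 3 was lower than Col-0 replicates 1 and 3. EXPA3 differed by 0.52 on the log2 scale (SE 0.29, edgeR adjusted p = 0.491), which did not pass. It was 0.83 (edgeR adjusted p = 0.198) when Col-0 replicate 3 was left out, and 0.83 (edgeR adjusted p = 0.205) when vil1-1 replicate 3 was. Leaving out Col-0 replicate 2 gave 0.28 (edgeR adjusted p = 0.884). Without Col-0 replicates 2 and 3 together, EXPA1 had 0.59 (edgeR adjusted p = 0.881), EXPA9 0.50 (edgeR adjusted p = 0.826) and EXPA3 0.61 (edgeR adjusted p = 0.817). In the authors' deposited table EXPA9 had 0.58 (adjusted p = 2.69e-12) and EXPA3 0.34 (adjusted p = 0.000471), both called higher. Of the 5 genes tested in the counts, 4 had CPM ranges that did not overlap, all higher in vil1-1, against 17.1% of the 942 genes tested, 8.17% higher and 8.92% lower. Set against Col-0 replicate 1 alone, the same 4 genes were higher in every vil1-1 library, as were 26.0% of the genes tested.

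**Figure D1:**
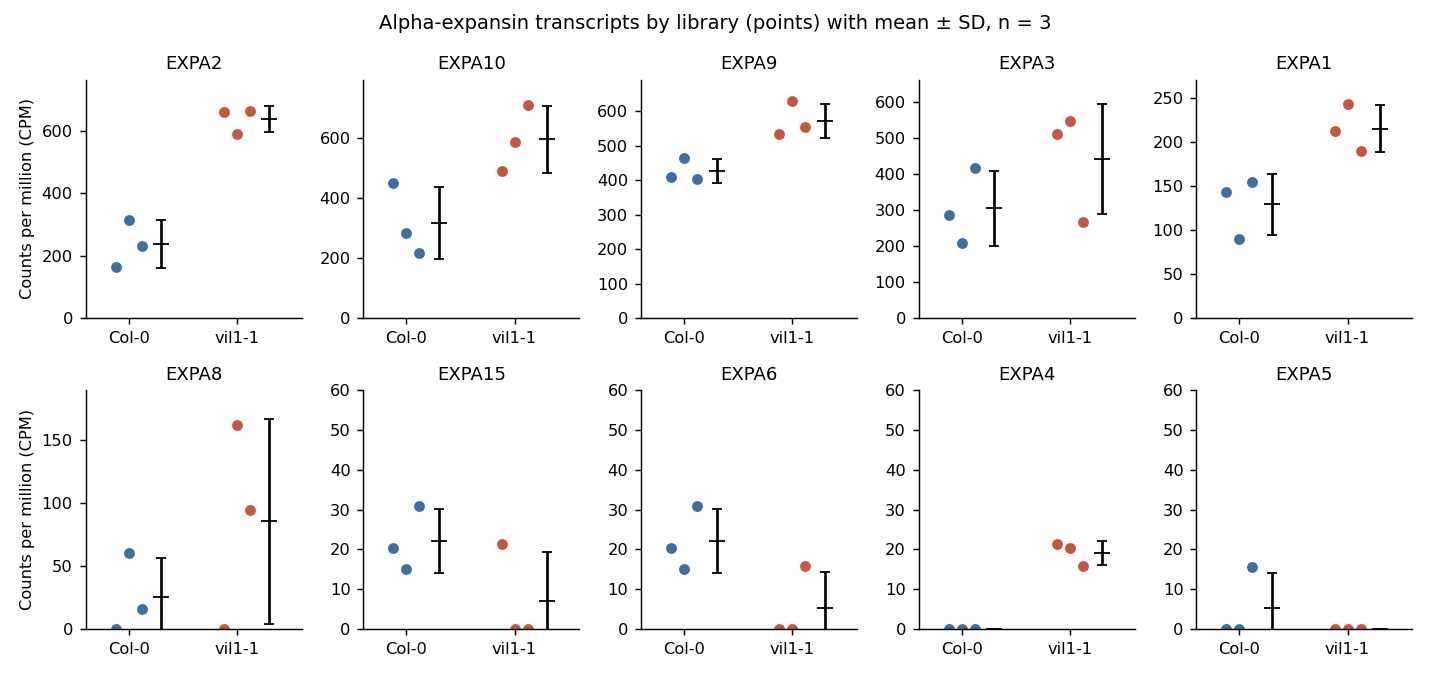
CPM of each alpha-expansin (vertical axis, its own scale from 0 in each panel) in the 3 Col-0 and 3 vil1-1 libraries, with points for libraries and black bars for the mean ± SD. EXPA2, EXPA10, EXPA9, EXPA1 and EXPA4 show no overlap between genotypes, and EXPA4 rests on 1 count in each vil1-1 library.

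The other 5 genes held 1 to 19 counts over all 6 libraries and were not tested in the counts. EXPA8 (AT2G40610) held 0, 4 and 1 counts in wild-type libraries against 0, 8 and 6 in mutant ones. It was absent from the counts of replicate 1 in both genotypes, so that all its wild-type counts come from Col-0 replicates 2 and 3, and the exact two-sided permutation test on CPM gave p = 0.4, where 3 against 3 libraries cannot go below 0.1. The authors' deposited table gives EXPA8 a log2 fold change of 1.13 (adjusted p = 4.6e-26), nearly that of EXPA1.

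EXPA15 (AT2G03090) held 1, 1 and 2 counts in wild-type libraries against 1, 0 and 0 in mutant ones (exact permutation p = 0.3). Its counts were thus fewer in vil1-1, whereas the authors' deposited table calls it higher, at 0.82 (adjusted p = 6.51e-09). With 5 counts in all, the count files could not resolve a difference of that size.

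EXPA6 (AT2G28950, chromosome 2, 12431338 to 12433796, minus strand) was the 1 member called lower, at -0.94 in the authors' deposited table (adjusted p = 2.08e-05). Wild-type libraries held 1, 1 and 2 counts of it, mutant libraries 0, 0 and 1 (exact permutation p = 0.2). With 5 counts in all, as for EXPA15, the count files could not resolve a difference of that size. Most of the wild-type counts of EXPA6 came from Col-0 replicates 2 and 3. The 250 bases before its start, chr2:12433797-12434046 (minus strand, RefSeq TAIR10.1), are printed as a contrast to EXPA2, with capitals on a match to ACGTG, the core that bZIP factors such as ABI5 bind, read from the opposite strand.
EXPA6: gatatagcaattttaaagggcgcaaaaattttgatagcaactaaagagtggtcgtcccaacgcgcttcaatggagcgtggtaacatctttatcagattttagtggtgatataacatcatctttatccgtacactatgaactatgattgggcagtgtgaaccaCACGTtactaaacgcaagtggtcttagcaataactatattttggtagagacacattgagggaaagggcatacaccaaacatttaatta

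EXPA4 (AT2G39700) had 0 counts in Col-0 and 1 count in each vil1-1 library (exact permutation p = 0.1). Its 0 counts over the 3 Col-0 libraries allow up to 16.7 CPM, close to the 19.1 ± 2.93 CPM of vil1-1 (SD, n = 3), and the authors' deposited table gives 0.08 (adjusted p = 0.863). EXPA5 (AT3G29030) had 1 count in Col-0 replicate 3 and none elsewhere, and the authors' deposited table gives -0.04 (adjusted p = 0.979) at 2.8 CPM.

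**Figure D2:**
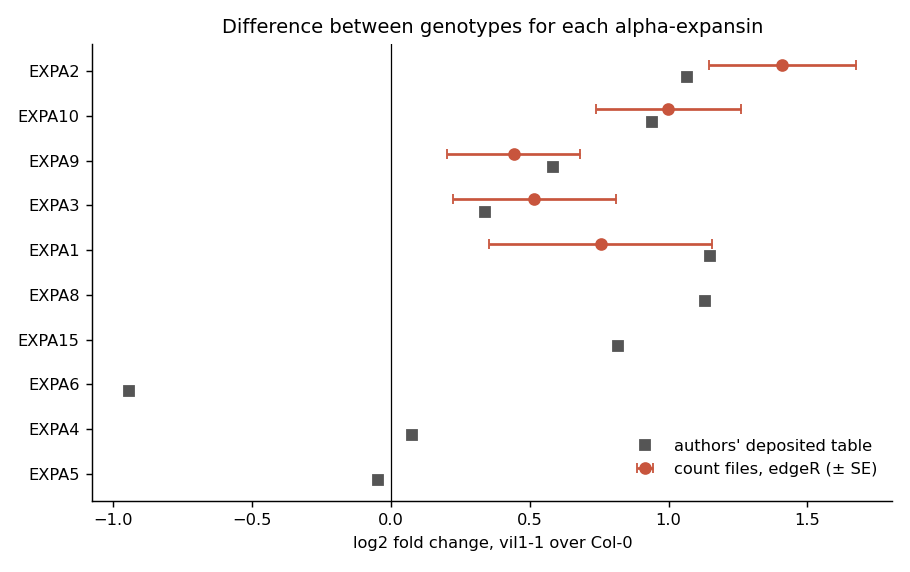
Log2 ratio between vil1-1 and Col-0 (horizontal axis, positive where vil1-1 is higher) for each gene, as red points with SE bars from edgeR on the count files (5 genes tested) and as grey squares from the authors' deposited table. The 2 sources differ most for EXPA1 (0.76 and 1.15) and EXPA2 (1.41 and 1.07), and EXPA6 alone lies far below 0, at -0.94.

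Levels of different genes were compared as CPM per kilobase of the longest annotated transcript. In Col-0, EXPA9 had the highest level per length (313 ± 25.5 CPM per kilobase), followed by EXPA2 (231 ± 73.9), EXPA10 (206 ± 77.9) and EXPA3 (183 ± 63). EXPA9 was first in each Col-0 library, and its range lay above those of EXPA10 and EXPA3 and overlapped that of EXPA2. The ranges of EXPA2, EXPA10 and EXPA3 overlapped. In Col-0 replicate 1 alone, EXPA9 and EXPA10 had 301 and 293 CPM per kilobase and EXPA3 and EXPA2 172 and 159. EXPA1, at 88.7 ± 23.7 CPM per kilobase in Col-0, lay below all 3 EXPA3 libraries and above all 3 libraries of EXPA8, the next in order. In vil1-1 EXPA2 came first, at 619 ± 41.7 CPM per kilobase, with its range above that of EXPA9 (420 ± 37). EXPA10 (387 ± 71.8) and EXPA3 (265 ± 90.8) followed with overlapping ranges, then EXPA1 (148 ± 18.4 CPM per kilobase, SD, n = 3 for each of these levels), whose range overlapped that of EXPA3. EXPA4, EXPA5, EXPA6, EXPA8 and EXPA15 had means of 0 to 64.6 CPM per kilobase in both genotypes, and neighbours among them overlapped.

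The share of each gene in the summed counts of the 10 shows the same data free of library scaling. EXPA2 held 10.96%, 21.6% and 15.3% of these counts in the wild type and 27.0%, 21.2% and 26.4% in the mutant. Col-0 replicate 2 and vil1-1 replicate 2 overlapped, and the mean difference of 8.87 percentage points gave p = 0.2 in the exact two-sided permutation test. Without Col-0 replicates 2 and 3 together the difference was 13.9 percentage points, with no test for a lone library. EXPA9 held 28.6% ± 2.92 in Col-0 and 22.1% ± 0.46 in vil1-1 (SD, n = 3 each), although its own CPM was higher in vil1-1. The mean shares of EXPA1 (8.66% and 8.33%) and EXPA10 (21.3% and 23.2%) were close in Col-0 and vil1-1. No other share was tested.

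**Figure D3:**
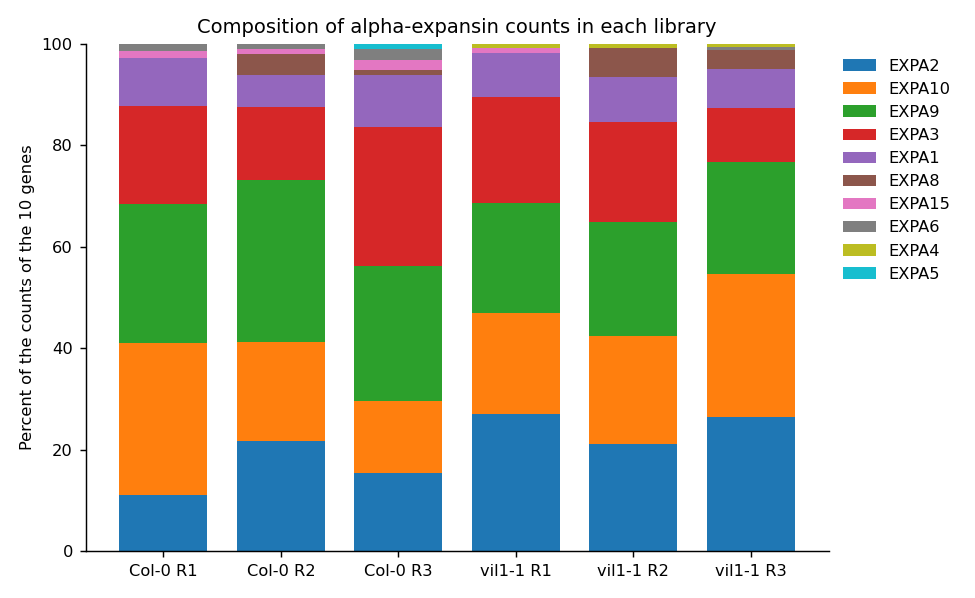
Percent of the summed counts of the 10 genes (vertical axis) held by each gene in each library (bars), not corrected for transcript length. EXPA2, at the base, covers 10.96% to 21.6% in Col-0 and 21.2% to 27.0% in vil1-1, and EXPA2, EXPA10, EXPA9, EXPA3 and EXPA1 together make up most counts in every library.

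The 2 sources did not rank the genes alike. If counts had followed the mean CPM of the authors' deposited table, EXPA10 would have had 57.0 counts over the 6 libraries and had 152, which is 2.67 times as many. EXPA1 would have had 125 and had 57, EXPA2 248 and 146, and EXPA15 15.4 and 5. EXPA3 (104 expected and 123 found) and EXPA9 (123 and 168) were nearer. Per length, the authors' deposited table puts EXPA2 first (710 CPM per kilobase), EXPA9 and EXPA1 next (267 and 252), then EXPA3 (184) and EXPA10 (109). The reason for these differences in level was not tested.

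Relatedness by sequence was set beside the fold changes. Over the 45 pairs of the 10 genes, coding sequences were 64.0% to 79.7% identical over aligned bases. By this measure EXPA1 and EXPA10 were the most alike (79.7%), and EXPA15 was next to both (76.2% with EXPA10 and 75.7% with EXPA1). In the authors' deposited table these 3 had log2 fold changes of 1.15, 0.94 and 0.82. EXPA3 and EXPA9, 76.7% identical, had 0.34 and 0.58. EXPA2 and EXPA8, 72.4% identical, had 1.07 and 1.13. EXPA5 and its closest member EXPA10, 71.4% identical, had -0.04 and 0.94. Pairs with EXPA6 lay farther apart: EXPA4 and EXPA6 (77.7% identical) differed by 1.02, EXPA6 and EXPA9 (74.3%) by 1.53, and EXPA3 and EXPA6 (73.4%) by 1.28. EXPA4 and EXPA9 (73.5%) differed by 0.51. The order of pairs depends on how alignment gaps are treated. With gap columns counted, EXPA1 and EXPA10 had 69.7%, and EXPA4 and EXPA6 were the most alike (76.3%). EXPA3 and EXPA9 (74.3%), EXPA10 and EXPA15 (73.8%), EXPA6 and EXPA9 (73.2%) and EXPA3 and EXPA6 (72.0%) then came next. The median difference of log2 fold change over the 45 pairs was 0.63, and pairs that share a gene are not independent.

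**Figure D4:**
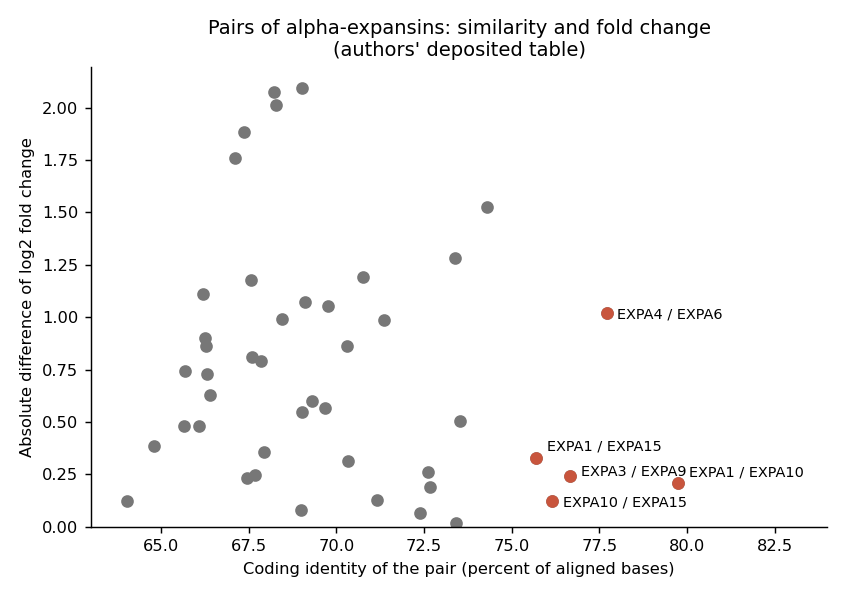
Absolute difference of log2 fold change in the authors' deposited table (vertical axis) against percent identity of the coding sequences over aligned bases (horizontal axis) for the 45 pairs of alpha-expansins, with the 5 most alike pairs by this measure in red. Of these 5, EXPA4 and EXPA6 differ by 1.02 and the others by 0.12 to 0.33. With gap columns counted, the 5 most alike would include EXPA6 and EXPA9 (difference 1.53) and EXPA3 and EXPA6 (1.28).

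Reads of related genes can be confused where their sequences match. The longest exact run that a transcript of the 10 genes shares with that of any alpha-expansin was 36 bases, between EXPA2 and EXPA14, and EXPA14 had 0 counts in every library. Between 2 of the 10 genes the longest was a run of 33 coding bases shared by EXPA10 (chr1:9260260-9260292, plus strand) and EXPA15 (chr2:917934-917966, minus strand), printed to show the closest match within the group.
EXPA10 and EXPA15: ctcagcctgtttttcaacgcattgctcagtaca
The sources used here give neither the read length nor the treatment of reads with several matches.

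EXPA1 and EXPA10 also resembled each other before the gene start. Their windows, chr1:26141476-26141725 for EXPA1 and chr1:9259182-9259431 for EXPA10 (both plus strand, RefSeq TAIR10.1), are shown because this pair was the most alike over aligned coding bases. Their log2 fold changes in the authors' deposited table differed by 0.21, and other pairs lay closer, such as EXPA1 and EXPA8 (0.02). Capitals mark exact runs of at least 9 bases found in both windows.
EXPA1: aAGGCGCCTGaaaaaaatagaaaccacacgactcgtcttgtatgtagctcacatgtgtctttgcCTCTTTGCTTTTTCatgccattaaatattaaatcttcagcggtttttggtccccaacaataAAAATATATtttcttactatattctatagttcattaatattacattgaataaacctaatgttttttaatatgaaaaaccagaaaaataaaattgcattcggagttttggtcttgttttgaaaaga
EXPA10: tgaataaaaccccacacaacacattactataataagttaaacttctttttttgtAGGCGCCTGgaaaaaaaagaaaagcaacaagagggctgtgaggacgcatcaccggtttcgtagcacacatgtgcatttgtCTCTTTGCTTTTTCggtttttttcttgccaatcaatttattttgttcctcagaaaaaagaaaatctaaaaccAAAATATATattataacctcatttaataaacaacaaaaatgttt
The 3 runs cover 32 bases in each window and come in the same order. The longest, CTCTTTGCTTTTTC, has 14 bases and was the longest run shared by any of the 45 pairs of windows, whose median was 9. The 3 runs start at different distances from the annotated starts of the genes, which may not be the starts used in these seedlings.

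Known motifs were searched on both strands of the 250-base windows. The RY element CATGCA was found before EXPA2 and EXPA3, 2 of the 10 genes, and in 8.43% of 27443 windows of protein-coding genes. ACGTG was found before EXPA3 and EXPA6 and in 22.9% of all windows. The G-box CACGTG, which contains ACGTG, was found before none of the 10 and in 6.49% of all windows. The L1 box of epidermis-expressed genes, searched as TAAATGCA and TAAATGTA, was found before EXPA5 and in 4.49% of all windows. These matches are letters in a window and do not show binding.

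The rest of the expansin family was scarce. The other 16 alpha-expansins held 0 to 10 counts per library in all and 10 of them had no count. EXPA20, with 12 counts in Col-0 and 15 in vil1-1, was called higher in the authors' deposited table at 0.48 (adjusted p = 0.0047). EXPA18, an expansin of root hairs, was called lower there at -1.79 (adjusted p = 0.0226). Of 10 beta-expansin and expansin-like genes, none had the counts for a test and 6 have a row in the authors' deposited table, where EXLA1 alone was called, at 1.13 (adjusted p = 0.00103). Of the 26 alpha-expansins, 21 are in the authors' deposited table. There 8 were called higher, 2 lower and 11 were not called, against 3.56% higher and 3.58% lower over all its genes. The median log2 fold change of the 21 was 0.34.

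**Figure D5:**
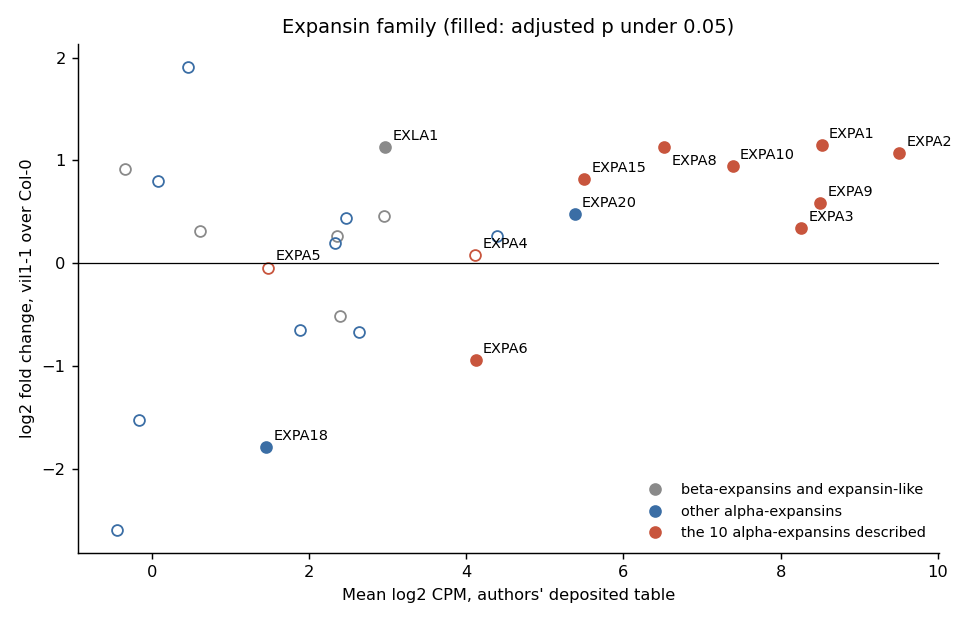
Log2 fold change (vertical axis) against mean log2 CPM (horizontal axis), both from the authors' deposited table, for the 10 alpha-expansins (red), other alpha-expansins (blue) and beta-expansins and expansin-like genes (grey), filled where the adjusted p is under 0.05. The 7 red points called higher have mean log2 CPM of 5.50 to 9.51, and EXPA6 and EXPA18 are the points called lower.

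Other genes of wall growth were counted beside the expansins. Plasma membrane proton pumps acidify the wall, the condition in which expansins act. The authors' deposited table called none of its 10 pump genes, and AHA2, the most abundant, had -0.07 there (adjusted p = 0.682) and 0.06 in the counts (edgeR adjusted p = 0.954). In the authors' deposited table, 1 of 10 genes for SAUR proteins and clade D PP2C phosphatases and like loci, which tune these pumps, was called higher (AT3G17090 at 0.35, adjusted p = 0.0234) and 1 lower (APD7, a clade D phosphatase, at -0.77, adjusted p = 6.31e-05). MAN7, an endo-beta-mannanase that acts on mannan walls such as those of the endosperm, was the 1 of 5 mannanase genes called there, at 1.14 (adjusted p = 1.05e-11), with 2 counts in Col-0 and 1 in vil1-1. Of 10 cellulose synthase genes, 3 were called lower in the authors' deposited table and none higher. They were CESA7 (-1.50, adjusted p = 0.00116) and CESA4 (-0.94, adjusted p = 0.0128), both of secondary walls, and CESA5 (-0.39, adjusted p = 0.0382). Over all 25005 genes, the shares called were 3.56% higher and 3.58% lower, to be read beside each list here. CESA4 had 0 counts, CESA7 had 1 in Col-0, and CESA5 had 12 in Col-0 and 3 in vil1-1. CESA3, alone tested in the counts, was not called, at 0.83 (edgeR adjusted p = 0.263), from 32 Col-0 and 50 vil1-1 counts. Its log2 fold change from the authors was -0.16 (adjusted p = 0.354). Summed over this list, Col-0 held 513 ± 168 CPM and vil1-1 583 ± 119 CPM (SD, n = 3 each), from 94 counts in each genotype.

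Markers of tissues that express expansins were set beside these values. Endosperm markers summed to 902 to 1125 CPM in Col-0 and 885 to 1257 CPM in vil1-1, and of the 3 none was called. EPR1 had 0.14 (adjusted p = 0.384) and CP1 -0.02 (adjusted p = 0.923), both from the authors' deposited table, and ZOU had 0 counts. Epidermis markers summed to 205 to 346 CPM in Col-0 and 107 to 221 CPM in vil1-1, and 1 of the 3 was called in the authors' deposited table, PDF1 lower at -0.35 (adjusted p = 4.13e-05). In the counts PDF1 had a log2 fold change of -1.14 (edgeR adjusted p = 0.158). PDF1 held 41 of the 50 Col-0 counts of these markers and 16 of the 26 vil1-1 counts. ATML1 had 1 count in Col-0 and 4 in vil1-1, and PDF2 had 8 and 6. The authors' deposited table gives ATML1 -0.24 (adjusted p = 0.186) and PDF2 0.21 (adjusted p = 0.227). Seed coat markers summed to 75.1 to 124 CPM in Col-0 and 60.8 to 111 CPM in vil1-1, with BAN, TT10 and TT12 at 0 counts and none of 5 called in the authors' deposited table, where the most abundant, MUM4, had -0.21 (adjusted p = 0.389). Root hair markers, counted with EXPA7 and EXPA18, came to 6 wild-type and 3 mutant counts. Of these 6 genes, 4 were called lower in the authors' deposited table, against 3.58% of all its genes. They were LRX1 (-1.32, adjusted p = 0.0174), COBL9 (-1.27, adjusted p = 0.000132) and PRP3 (-1.08, adjusted p = 1.62e-05) besides EXPA18. RHD6 (-0.12, adjusted p = 0.803) and EXPA7 (-0.67, adjusted p = 0.22) were not called. Of 2 NAC loci listed as regulators of endosperm expansins, NAC25 and AT3G12977, neither had a count in any library. The part of these tissues in the expansin values was not tested.

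Among the 941 other genes tested in the counts, those whose mean-centred log2 CPM over the 6 libraries lay nearest to EXPA2 by Euclidean distance were ARA12, a subtilisin-like protease (0.30), FBA6, a fructose-bisphosphate aldolase (0.41), and AT5G20950, a glycosyl hydrolase family gene (0.53). EXPA9 ranked 50, EXPA10 68, EXPA1 82 and EXPA3 252, at distances of 1.28 to 1.68. ARA12 reached 5, 11 and 9 wild-type counts against 16, 16 and 26 mutant counts, a log2 fold change of 1.40 (edgeR adjusted p = 0.00901). Over the 4 libraries other than Col-0 replicates 2 and 3, FBA6, ARA12 and AT4G27450 were nearest, in this order, with AT5G20950 at rank 8 and the 4 expansins at ranks 94 to 216. This likeness holds over 6 libraries of 2 genotypes and says nothing of a shared control.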

How the data were processed

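RNA-seq counts per gene were deposited by the authors as 1 file per library, unnormalized. The submitters' processing notes name Bowtie2, featureCounts, edgeR and TAIR10, without versions or roles. The authors' deposited table lists for each gene a p-value, an F statistic (taken as a score), a log2 fold change and its average level as log2 CPM. The sources used here do not say which libraries it rests on or how its test treated the spread between replicates. Its p-values match its F values only if that spread is taken as known, not estimated for each gene. They may thus be too small for genes whose replicates vary more. Its p-values were adjusted here by Benjamini-Hochberg over 25005 genes.

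Groups came from the sample titles, and the series design calls the replicates biological. The counts were tested with edgeR 4.0.16 (R 4.3.3) by its quasi-likelihood F test, with TMM normalization, the default filter on low counts (942 genes kept), genotype as the only term and a threshold of 0.05 on Benjamini-Hochberg adjusted p. The SE was derived from the fold change and its F value. CPM is without TMM factors. In 5 simulated data sets, each with 200 changed genes and 928 tested on average, recovery was 81.0% at a 2-fold change and 99.5% at a 4-fold change, with 2.88% false calls. The simulations changed a larger share of genes than was called in the data. They also gave every gene the same spread beyond counting error, so recovery in the data may be lower. Alternatives were DESeq2 1.42.0, limma-voom (limma 3.58.1), 2 other scalings, 2 other filters, the replicate number as a block and each library left out. Floors from 0 counts (3 counts) cover counting error only. Transcript lengths, coding sequences and upstream windows came from RefSeq TAIR10.1, which was used with its own annotation only. Identity was computed with Biopython 1.88 global alignments.

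The members, gene lists and motifs were chosen with earlier results of these data known. Named were all 10 members, called members of each list (up to 3) or its most abundant member, and the 3 tested genes nearest to EXPA2. EPR1, ZOU, BAN, TT10, TT12, NAC25, AT3G12977, ATML1, PDF2, RHD6, EXPA7 and CESA3 were named besides.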

Additional observations from a re-analysis of the deposited data

How the results depend on the processing

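EXPA2 was called in all 14 other settings, with log2 fold changes of 1.24 to 1.97, and EXPA1, EXPA3 and EXPA9 were called in none of them. EXPA10 was called in 6 of 14, with 0.45 to 1.28. The number of the 10 genes called higher from the counts was 2, and 1 with DESeq2, with no filter, with CPM above 1 in 3 libraries and without both Col-0 replicates 2 and 3 (added after the data had been seen), and ranged from 1 to 2 with 1 library left out. Over all genes, 26 were called higher and 9 lower. DESeq2 called 8 and 0, no filter gave 16 and 5, and leaving out Col-0 replicates 2 and 3 gave 6 and 1. With 1 library left out, 15 to 22 genes were higher and 4 to 15 lower. In the authors' deposited table Bonferroni adjustment left 6 of the 10 genes higher and 1 lower, without EXPA3.

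With the replicate number as a block, edgeR called 26 genes higher and 9 lower, and EXPA2 (1.42, edgeR adjusted p = 0.000978) and EXPA10 (1.00, edgeR adjusted p = 0.0311) stayed called. For the share of EXPA2, pairing by number gave p = 0.5 in an exact sign-flip test. Deviations of same-numbered libraries correlated at 0.08, -0.03 and 0.02 across genes, and those of different-numbered libraries at -0.11 to 0.10. At this depth counting error could hide a pairing, so these values do not settle whether the numbers pair the libraries. The difference of the summed CPM was 1090, 992 to 1154 with 1 library left out and 1145 with TMM scaling. That of the EXPA2 share was 8.87 percentage points, and 13.9 without Col-0 replicates 2 and 3. With 1 library left out the share differed by 6.37 to 11.7 percentage points (exact permutation p = 0.2 to 0.4), where this test cannot go below 0.2. Levels per length moved by less than 1 SD with summed exon length. Depth limits EXPA4, EXPA5, EXPA6, EXPA8 and EXPA15, whose differences rest on the authors' deposited table.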
